A study of Caenorhabditis elegans with 2 samples.

Results

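NHR-76 binding was examined at 10 genes of Caenorhabditis elegans that serve the breakdown of propionate, among 19985 protein-coding genes in all. They are the nuclear hormone receptor genes nhr-68 and nhr-10, the 5 enzyme genes of the propionate shunt (acdh-1, ech-6, hach-1, hphd-1 and alh-8) and 3 enzyme genes of the canonical route (mmcm-1, pcca-1 and pccb-1). The 10 genes were selected by name and pathway with results of these data already known, among them the called peak at nhr-68, so their regions are described here and not tested. The assay was ChIP-seq, which pulls down a protein with an antibody and sequences the DNA fragments that come with it. There was 1 group, whole L4 larvae (the last larval stage) of mixed sex from strain OP203, which carries unc-119(ed3) and the transgene wgIs203 for eGFP-tagged NHR-76, with 2 biological replicates per the labels. No untagged strain or other control was analysed here, the labels do not state what drives the transgene, and whole animals do not show in which tissue a region was bound.

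Propionate is a short-chain fatty acid that arises when branched-chain amino acids and odd-chain fatty acids are broken down, and it is toxic when it builds up. With enough vitamin B12, propionyl-CoA is carboxylated and then rearranged to succinyl-CoA by the canonical route, whose mutase needs B12. When B12 is scarce, C. elegans turns on the shunt, a path to acetyl-CoA that needs no B12, and nhr-10 and nhr-68 are known to activate it when propionate stays high, with nhr-68 itself depending on nhr-10. NHR-76 is another receptor of the same large family.

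The deposited values were lists of regions on the ce11 build, each region with a signal value that ranks it within its list (rank 1 is the strongest) and has no stated scale. Replicate 1 listed 26700 regions, replicate 2 listed 24791, and the pooled list made from both held 13052. The called list held the 319 regions that passed the irreproducible discovery rate (IDR), a rule based on how consistently regions rank between replicates. Of these, 313 had a summit within 200 bp in both replicates. Not all ranked high in both, since the worse replicate rank of a pooled region with a called summit reached 11494. The replicate and pooled lists hold background as well as peaks by their deposited description, so a low-ranked region may be background. A region was assigned to a gene when its summit lay between 2000 bp upstream of the gene's 5′ end and its 3′ end, and 2 summits counted as matched when they lay within 200 bp. The files used hold no read counts, and the depth is unknown.

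Of these loci, 3 stretches of DNA carry most of what follows, and they are shown first. The first lies at the only called region of the 10 genes, upstream of nhr-68 (chrV:11572991-11573290, plus strand). The second lies at the strongest region of a shunt enzyme, upstream of alh-8 (chrII:11728576-11728875, plus strand). The third, upstream of hach-1 (chrIII:5554987-5555286, plus strand), is shown as a weaker region for contrast. Capitals mark matches on either strand to 7 short motifs, namely CACGTG (an E-box), GAGAGA repeats, TGATAA, which is an element for GATA factors, and, as nuclear receptor elements, AGGTCA, its longer form AAGGTCA, the variant AAGTCA and the DAF-12-type AGTGCA. The letters are from the NCBI copy of WBcel235, which is the ce11 sequence.
nhr-68: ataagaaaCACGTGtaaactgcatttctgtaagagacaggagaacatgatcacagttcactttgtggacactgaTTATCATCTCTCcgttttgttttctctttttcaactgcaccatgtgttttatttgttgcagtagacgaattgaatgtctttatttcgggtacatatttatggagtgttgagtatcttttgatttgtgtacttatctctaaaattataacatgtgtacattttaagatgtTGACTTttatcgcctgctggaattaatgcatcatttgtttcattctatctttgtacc
alh-8: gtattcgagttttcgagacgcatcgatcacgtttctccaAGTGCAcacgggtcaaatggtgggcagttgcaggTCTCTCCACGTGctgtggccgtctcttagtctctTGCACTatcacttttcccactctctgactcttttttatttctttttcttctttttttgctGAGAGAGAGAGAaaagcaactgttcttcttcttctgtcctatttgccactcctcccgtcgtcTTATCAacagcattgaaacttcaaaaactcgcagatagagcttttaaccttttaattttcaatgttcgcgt
hach-1: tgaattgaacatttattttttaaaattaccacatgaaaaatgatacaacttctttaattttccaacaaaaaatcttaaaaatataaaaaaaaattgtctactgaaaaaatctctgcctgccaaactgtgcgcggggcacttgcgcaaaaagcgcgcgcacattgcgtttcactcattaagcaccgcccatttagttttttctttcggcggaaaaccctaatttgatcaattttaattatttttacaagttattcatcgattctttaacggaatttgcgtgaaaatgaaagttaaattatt
Each stretch is 300 bases long and centred on the summit, except that the one at nhr-68 was moved to start just past the transcribed part of the neighbouring gene H12C20.7. The nhr-68 stretch therefore leaves out the first part of the called region and runs past its end.

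Among the 10 genes, nhr-68 had a called region and the other 9 had none. Over all protein-coding genes, 333 had a called region in the same window (1.67%), and since the call at nhr-68 was known when the genes were chosen, nothing is read from this count. The called region (chrV:11572817-11573186) had signal value 72.6 and rank 186 of 319. The matching region ranked 329 in replicate 1 (signal value 33.3), 111 in replicate 2 (signal value 38.4) and 170 in the pooled list (signal value 71.5). Both replicates therefore placed it among their 1000 strongest regions, with summits 20 bp apart. By the strongest region in its window, nhr-68 stood at place 177 of the 8219 genes with any pooled region.

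The called summit lay 438 bp upstream of nhr-68 but only 12 bp upstream of H12C20.7, a protein-coding gene that runs the other way on the minus strand. The region sat in the stretch shared by this divergent pair, so the lists do not tell which of these genes it belongs to. With each summit given only to the gene with the nearest 5′ end, H12C20.7 took it and no propionate gene had a called region. An E-box, CACGTG, spanned the called summit (chrV:11572999-11573004), and it is the first run of capitals in the nhr-68 sequence. The summit of replicate 2 also lay in it, while those of replicate 1 and the pooled list, both at 11573020, lay past it. A GATA element and a GAGAGA match on the minus strand followed side by side 65 and 71 bp downstream of the summit. The receptor element AAGTCA matched once in the stretch shown, 234 bp downstream of the summit and past the end of the called region. Other regions in the nhr-68 window ranked 18928 in replicate 1 and 22492 in replicate 2, at places that did not match each other.

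The other receptor gene of the pathway, nhr-10, had no called region and only low-ranked regions in the other lists. Its strongest pooled region (chrIII:7112135-7112504) had signal value 20.1 and rank 5559, and its summit fell in the annotated 3′ UTR, 427 bp from the 5′ end of the next gene, B0280.7. A region 1107 bp upstream of nhr-10 ranked 7022 in the pooled list, and regions within 200 bp of it ranked 24005 in replicate 1 and 4934 in replicate 2. Replicate 1 also had a region at rank 5738, 904 bp upstream of nhr-10, within 200 bp of that same region of replicate 2. No called summit was nearer than 38570 bp to the 5′ end of nhr-10. Of the 269 genes with an nhr symbol, 14 had a called region (5.20%), and by the strongest one nhr-68 was the fifth among them. By pooled rank nhr-68 was the sixth of these genes and nhr-10 stood at place 66. The tagged gene nhr-76 led both orders, with a called region at rank 25, a gene that the transgene also carries.

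**Figure D1:**
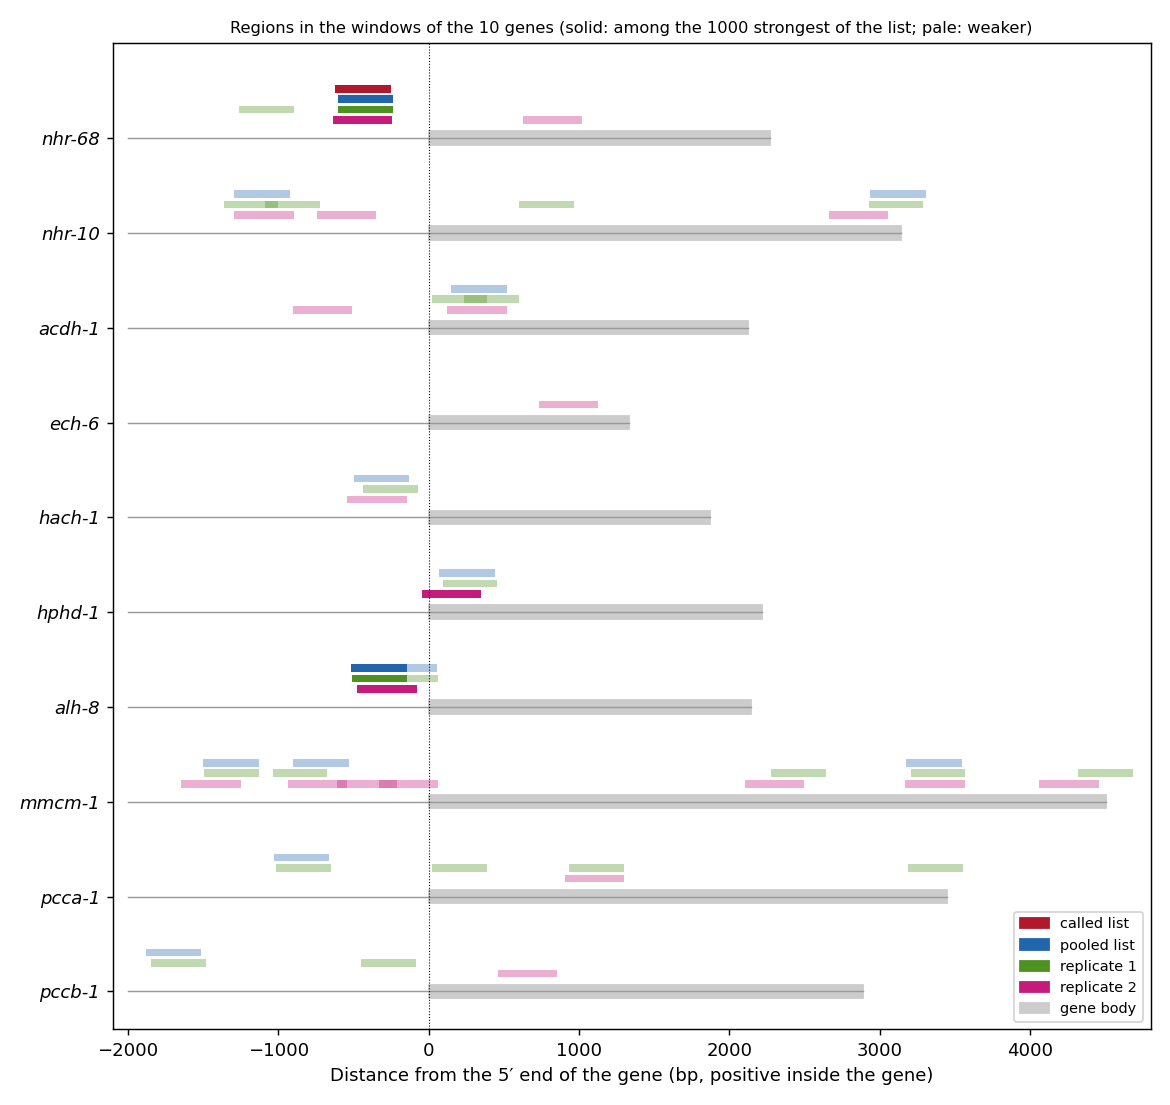
Regions of the 4 lists in the window of each gene, drawn along the distance from the gene's 5′ end in bp (gene body in grey). Solid bars are among the 1000 strongest regions of their list and pale bars are weaker. The regions of all 4 lists stack up 440 to 420 bp upstream of nhr-68, 3 lists do so upstream of alh-8, and ech-6 shows a single pale bar.

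Along the shunt, the regions near the genes ran from alh-8, the strongest, to ech-6, which had none in the pooled list. The enzyme alh-8 encodes is malonic semialdehyde dehydrogenase, which makes acetyl-CoA in the last step of the shunt. Its strongest pooled region (chrII:11728541-11728910) lay 329 bp upstream of its 5′ end and had signal value 57.6 and rank 272. Matching regions ranked 173 in replicate 1 (signal value 41.5) and 713 in replicate 2 (signal value 19.6), with summits 46 bp apart. Only the window of alh-8 held this summit, and alh-8 had the nearest 5′ end. A weaker pooled region followed 128 bp upstream of the gene (rank 2678), and replicate 1 ranked its own counterpart 1908.

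The alh-8 region was not called, although by pooled rank it lay within the first 319, where 2 of the 10 genes, nhr-68 and alh-8, had a region, against 1.75% of all genes. Of the 319 strongest pooled regions, 54 had no called summit within 200 bp, and the one at alh-8 was among them. Its deposited -log10 q was 2.98, the highest value in the pooled list, which 475 regions shared, nhr-68 included, and 175 of those were not called. Among the 324 pooled regions that had a called summit, 82 had a lower pooled signal value than the alh-8 region. In the replicates it ranked 173 and 713, as given above. Of the 313 called regions matched in both replicates, 260 had ranks in both no worse than 713, and the median of the worse rank was 272. Of the 54 strong regions without a called summit, 52 were matched in both replicates, with a median worse rank of 473. When the 319 strongest regions of a single replicate stood in for the called list, replicate 1 gave alh-8 and not nhr-68, and replicate 2 gave nhr-68 and not alh-8. Each gave 1 of the 10 genes.

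Next came hphd-1, the 3-hydroxypropionate dehydrogenase of the shunt. Its pooled region (chrII:12996131-12996500) had signal value 34.9, rank 1018 and a -log10 q of 1.46, and its summit lay 255 bp inside the gene, in an annotated 5′ UTR. The replicates disagreed on it, with rank 9005 in replicate 1 (signal value 11.5) and rank 635 in replicate 2 (signal value 20.4). This is a 14.2-fold gap in rank. For the 186 pooled regions at ranks 900 to 1100 that were matched in both replicates, the median gap was 2.96-fold and the upper quartile 6.79-fold. The region at hphd-1 thus stood among the 1000 strongest regions of replicate 2 alone.

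The hydrolase gene hach-1, whose product releases 3-hydroxypropionate from CoA, had a pooled region with signal value 31.0 and rank 1353 (chrIII:5554952-5555321). It ranked 2164 in replicate 1 and 1429 in replicate 2, a 1.51-fold gap, so both replicates placed it alike. The pooled summit lay 313 bp upstream of hach-1 and 203 bp upstream of nmad-1, which runs the other way, so hach-1, like nhr-68, shares its region with a divergent neighbour. None of the 7 motifs occurred in its 300 bases, which are all in lower case above.

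The gene acdh-1 encodes the acyl-CoA dehydrogenase of the first shunt step and is widely used as a reporter of low B12. Its pooled region had signal value 26.8, rank 2111 and a -log10 q of 0.546 (chromosome I, 6497588 to 6497957). It ranked 3868 in replicate 1 and 2793 in replicate 2, a 1.39-fold gap. The pooled summit lay 337 bp inside the gene, in a coding exon, and not in the upstream sequence. Upstream of acdh-1 the only region was in replicate 2, at rank 24465, and the nearest called summit was 67205 bp away. The hydratase gene ech-6 had no pooled region and none in replicate 1. Replicate 2 listed 1 region there, at rank 8345 in an intron.

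**Figure D2:**
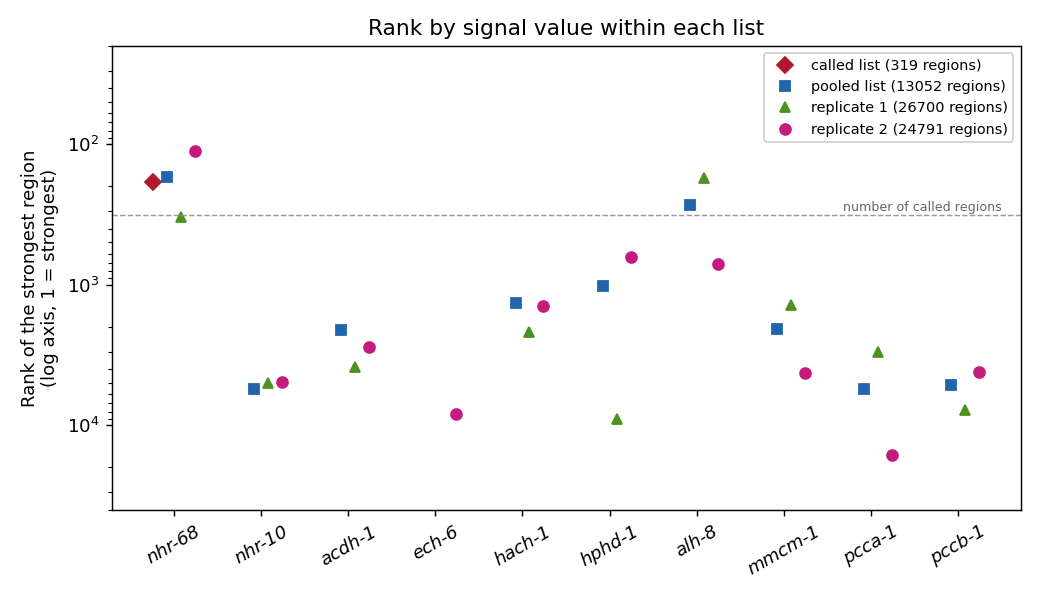
Rank of the strongest region in each gene's window in the called list, the pooled list and both replicates (log axis, strongest at the top). The dashed line marks the 319 called regions. The pooled ranks of nhr-68 (170) and alh-8 (272) lie above it, and the replicate ranks of hphd-1 (9005 and 635) lie farthest apart among the shunt enzymes.

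By pooled rank, pcca-1 and pccb-1 of the canonical route stood below every shunt gene with a pooled region, and mmcm-1 between hach-1 and acdh-1. By the strongest region in the window, replicate 1 put pcca-1 (3021) ahead of acdh-1 (3868), and pcca-1 and pccb-1 (7812) ahead of hphd-1 (9005). Replicate 2 put both of them behind acdh-1 and hphd-1. The strongest pooled region of the canonical route was at mmcm-1, the B12-dependent methylmalonyl-CoA mutase. It lay 717 bp upstream and had signal value 27.0 and rank 2057 (chrIII:3908219-3908588). The replicates ranked it 1389 and 21155, a 15.2-fold gap, with the high rank in replicate 1. The mmcm-1 window was the longest of the 10 (6503 bp) and held 3 pooled regions. The other pooled regions there ranked 5900, in an intron, and 6273, in the 3′ UTR of the neighbour pat-3.

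The carboxylase that starts the canonical route has subunits encoded by pcca-1 and pccb-1, both on the X chromosome. At pcca-1 the pooled region lay 847 bp upstream and ranked 5524, with rank 3021 in replicate 1 and no match in replicate 2. Both replicates listed a region in an intron of pcca-1, at ranks 15549 and 16171, with no pooled region there. At pccb-1 it lay 1695 bp upstream, nearer to F52E4.5 (509 bp), and ranked 5144, with rank 7812 in replicate 1 and no match in replicate 2. Replicate 2 listed a region in an intron of pccb-1 at rank 4149, the best rank of this gene in either replicate, with none there in replicate 1. The signal values of these pooled regions were 20.1 and 20.5, close to the median of the whole pooled list (19.1). The nearest called summits were 148361 and 92423 bp away.

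In the order of pooled rank the genes ran nhr-68, alh-8, hphd-1, hach-1, mmcm-1, acdh-1, pccb-1, pcca-1 and nhr-10, with ech-6 absent. Most neighbours in this order could not be told apart. By the strongest region in the window, which need not be the same region in both lists, the replicates gave opposite orders for 7 of the 8 neighbouring pairs and 15 of all 36 pairs of the 9 genes. The neighbours acdh-1 and pccb-1 kept their order in both. The first pair was nhr-68 and alh-8, with alh-8 ahead in replicate 1 and nhr-68 in replicate 2.

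**Figure D3:**
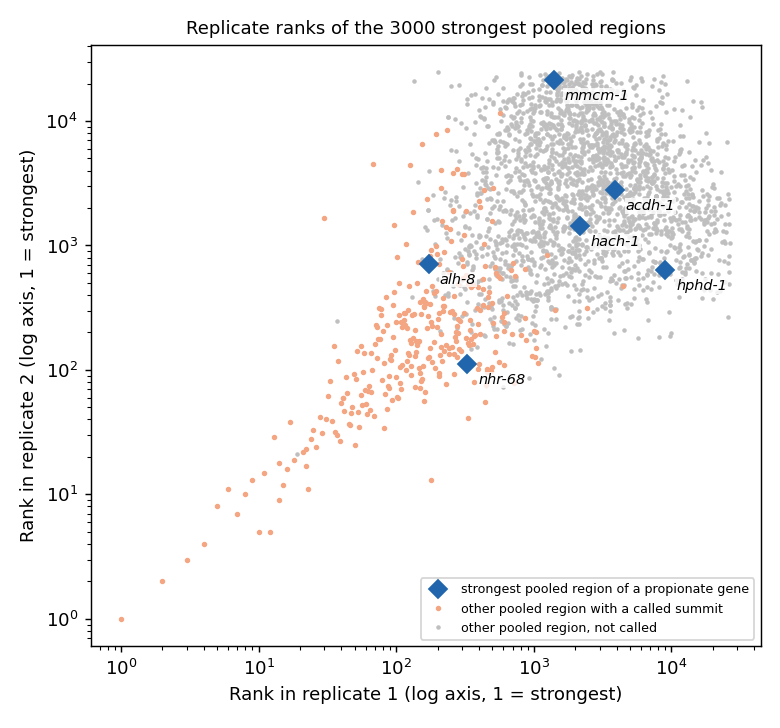
Ranks in replicate 1 (x axis) and replicate 2 (y axis) of pooled regions among the 3000 strongest, on log axes where 1 is the strongest. Diamonds are the strongest pooled regions of propionate genes, orange points other pooled regions with a called summit and grey points those without. The diamond of nhr-68 lies among mostly orange points and that of alh-8 where orange and grey points mix, while those of hphd-1 and mmcm-1 lie far from the diagonal.

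Set beside all protein-coding genes, listed regions were frequent at the 10 genes. A pooled region was present for 9 of 10, against 41.1% of all genes. For regions among the 1000 strongest pooled ones it was 2 of 10, against 4.97%, and among the 2500 strongest 6 of 10, against 11.4%. Regions in both replicates were found for 8 of 10 genes, against 27.4%, and regions among the 1000 strongest of both for 2 of 10, against 2.39%. Replicate 1 listed a region for 9 of 10 genes, against 63.5%, and replicate 2 for all 10, against 61.6%. Window lengths were similar, with a median of 4244 bp for the 10 genes and 4026 bp for the other genes. The 10 windows held 2.83 pooled regions per 10 kb and the other windows 1.31. These shares have no test, since the genes were chosen with the lists in view, and a part of the regions lies in windows shared with neighbours (5 of the 13 pooled regions).

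**Figure D4:**
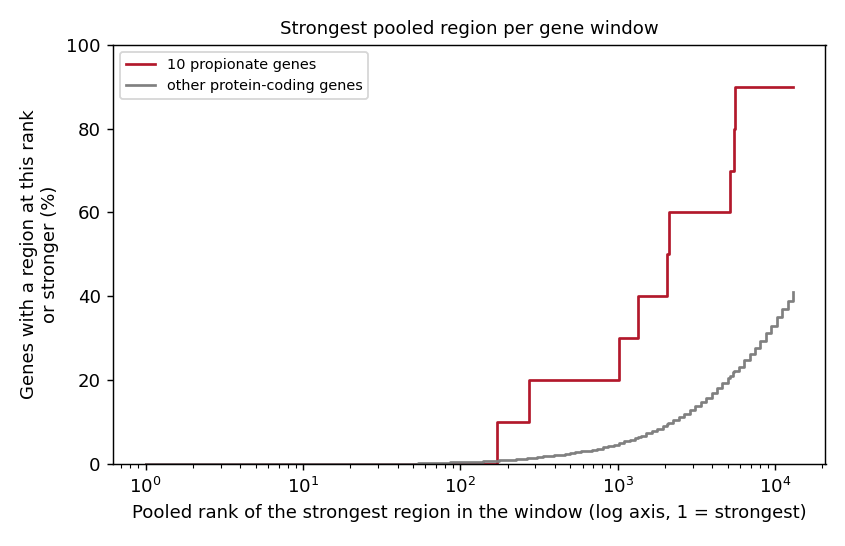
Share of genes whose strongest pooled region is at a given rank or stronger (x axis, log scale), for the 10 propionate genes (red) and all other protein-coding genes (grey). The red line reaches 60% within the 2500 strongest regions and ends at 90%, and the grey line ends near 41%.

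The regions can also be described by position and sequence, without a test. Of the 9 strongest pooled regions, 5 had their summit within 500 bp of the gene's 5′ end, namely those of nhr-68, alh-8, hphd-1, hach-1 and acdh-1. The same share over all genes was not computed, so nothing is read from this count. The GC content of the 9 regions ran between 27.8% and 39.2% with a median of 35.4%, against a median of 38.6% for the other called nuclear regions and 32.7% for uncalled ones. Sequence masked as repeats took a median of 31.9% of them, against 25.6% of the other called and 40.5% of the uncalled nuclear regions, and at hach-1 it took 58.4%. Whether repeats bear on the ranks was not tested.

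An E-box was present at 3 of the 9 strongest regions, those of nhr-68, alh-8 and hphd-1, which are also the 3 with the best pooled ranks. The place of hphd-1 did not hold in replicate 1, where its rank of 9005 was the last of the 9 genes with a region. Nothing is therefore read from the overlap of E-box and rank. In windows of 300 bp centred on the summit, CACGTG occurred in 20.1% of the 288 called nuclear regions and 5.34% of the 12725 uncalled ones. The mean GC content of these windows was 40.0% for called and 33.1% for uncalled regions. Whether this difference bears on the motif shares was not tested. The hphd-1 window held CACGTG 3 times and the nhr-68 window 2 times, although the nhr-68 stretch shown holds only the match at the called summit. At alh-8 it lay 68 bp upstream of the summit. The called summit at nhr-68 lay inside an E-box, as it did in 4 of the 58 called windows that had one. Among the called windows with an E-box, the nearest one was a median of 45 bp from the summit, against 65 bp in uncalled windows, a measure added after the data were seen. GAGAGA matched at 5 of the 9 (nhr-68, alh-8, hphd-1, mmcm-1 and pcca-1), against 52.1% of called and 20.1% of uncalled regions. At alh-8 it formed an overlapping run on the plus strand, seen as the unbroken GA repeat in capitals in its sequence.

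Of the 4 nuclear receptor elements, 2 had a match in the same centred windows. AGGTCA matched at 1 of 9, pcca-1, against 8.68% of called and 7.09% of uncalled regions, and AGTGCA at 2 of 9, alh-8 and hphd-1, against 11.1% and 9.59%. AAGGTCA matched at none (5.21% and 2.43%). AAGTCA matched at none within these windows (15.6% and 13.2%), since the match at nhr-68 lies farther from the summit than the centred window reaches. TGATAA, the GATA element bound by intestinal regulators, matched at 5 of 9 (29.9% and 29.2%). The centred window of nhr-68 held TGATAA 2 times, while the stretch shown holds only the match downstream of the summit. A match to letters is not a bound site.

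Beyond the 10 genes, called regions in the related lists are read against the 1.67% of all protein-coding genes that had one, without a test. Of 7 genes for B12 handling and the last canonical steps none had a called region, and the strongest pooled region among them was at mtrr-1, the methionine synthase reductase, at rank 529, 1773 bp upstream of the gene. Of 14 genes of branched-chain amino acid and related breakdown, 2 had one. They were dld-1, the dihydrolipoamide dehydrogenase shared by several mitochondrial complexes (called signal value 59.4, 228 bp upstream, ranks 281 and 257 in replicates 1 and 2), and acdh-9, an acyl-CoA dehydrogenase gene (called signal value 91.0, 124 bp upstream, ranks 74 and 176). The region at acdh-9 lay nearer to the 5′ end of F28A10.13, at 85 bp. At dbt-1, a subunit of the branched-chain keto acid dehydrogenase, a pooled region 111 bp upstream ranked 433 and was not called, with ranks 4483 and 210 in the replicates. Of the 12 relatives of acdh-1, acdh-9 was the only one with a called region. Of 12 other metabolic regulators, among them nhr-114, nhr-49, sbp-1, mdt-15 and elt-2, none had a called region or a pooled one among the 1000 strongest. Over all genes 4.97% had a pooled region among the 1000 strongest, so none among 12 genes is not read as an absence.

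By rank in the called list and both replicates, the regions most like that of nhr-68 were found at psd-1, a phosphatidylserine decarboxylase gene (rank 194, with 390 and 101 in replicates 1 and 2) and between cap-2 and gmps-1 (rank 206, with 297 and 143). The summit at psd-1 lay 2289 bp downstream of the gene's 5′ end, while the other summit lay upstream of both cap-2 and gmps-1. The likeness was the Euclidean distance between log10 ranks over the 3 lists, 0.0864 for psd-1 and 0.127 for the genes of the other region.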

How the data were processed

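Regions bound by eGFP-tagged NHR-76 were taken from 4 deposited lists on ce11, 1 per replicate, 1 pooled and 1 called. The replicate and pooled lists came from the alignments and 1 further file, and the authors' IDR step on all 3 of them gave the called list, per the deposited texts. Software and cutoffs: not given in the sources used here. The signal value of a region is a deposited score with no stated scale and ranked regions only within its list. The deposited -log10 q was the same for every called region. The 4 ce10 lists were not used. Depth is unknown, so no interval was given.

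Genes came from Ensembl release 115 (WBcel235), and sequence from the NCBI copy of that assembly. All regions lay within the chromosomes of that copy. Windows, matches and motifs were computed with Python 3.11.15 and pandas 2.3.3, and the assignment of regions to genes was checked on simulated data. There is 1 group and no test. The members, gene lists and motifs were chosen with earlier results of these data known. Genes named beyond the 10 were those of the lists with a called region, nearer neighbours of a called summit and those most alike in rank. B0280.7, nmad-1, F52E4.5, pat-3, mtrr-1 and dbt-1 were named after their values were seen. Alternatives changed the window, the nearest-gene rule, the matching distance, the number of strongest regions, the chromosomes ranked and the replicate used.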

Additional observations from a re-analysis of the deposited data

How the results depend on the processing

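Most counts kept to within 1.5 times of their value under the alternatives. Giving each summit only to the nearest gene left 0 of the 10 genes with a called region and 1 with a region among the 1000 strongest of both replicates, and the share of all genes with a called region became 1.08%. The stronger part of the called regions, cut at the middle, held 0 of the 10 genes, since nhr-68 ranked 186 of 319. A window of the 2000 bp upstream and the first 200 bp of the gene left 5 genes with a region in both replicates, against 8. Among the 500 strongest regions of both replicates 1 gene remained, nhr-68, and among the 5000 strongest there were 4. Leaving out a replicate did not remake the called or pooled list, and the list of the other replicate was counted. Without replicate 1, the 319 strongest of replicate 2 held 1 gene, still nhr-68. Without replicate 2, the 319 strongest of replicate 1 also held 1 gene, which was alh-8. The full list of replicate 2 reached 10 genes and that of replicate 1 reached 9, both lists being longer than the pooled one. Among nuclear regions only, the called region at nhr-68 ranked 155 (186 over all chromosomes). Ranks by -log10 q could not be had for called regions, where it does not vary. No paired analysis was possible because there is 1 group. The unknown depth limits what an absent region says, for instance at ech-6.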
